A study of Mus musculus with 24 samples.

Results

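The genes described here encode the proteins of the cytosolic ribosome. They were chosen by symbol: Rpl or Rps followed by a number and at most a letter a, l or x, with the stalk genes Rplp included, where the gene is protein coding and its counts summed to at least 1000 over all 24 libraries. Of 36528 gene rows 82 had such a symbol, 80 of these were protein coding, and 72 reached the minimum: 40 of the large subunit (Rpl), 29 of the small subunit (Rps) and 3 of the stalk (Rplp0, Rplp1, Rplp2). Among the 8 protein-coding genes below the minimum were Rpl10l, Rpl3l, Rpl39l, Rpl36a, Rpl24, Rpl23a and Rpl28, of which Rpl23a (934 counts) and Rpl28 (981 counts) lay just outside it, and Rps13 (1081 counts) and Rps23 (1109 counts) just inside.

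RNA was sequenced from cells sorted from small-intestine tumours of mice with the genotype written AKVPL, which every group shares and the labels do not spell out. Tumours were exposed to diphtheria toxin (DT), which was used to deplete cells expressing the stem cell receptor Lgr5, or to saline, and cells were taken 24, 48 or 96 h later, which gives 6 groups of 4 libraries. EpCAM, a surface protein of epithelial cells, stands in the sample names, and the sort is recorded as bulk. The sources used here do not give the age of the mice, the allele that makes the cells sensitive to the toxin, or whether the 4 libraries of a group came from separate animals. The p-values therefore measure the spread between these libraries, which may be technical.

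A ribosome is built from a large and a small subunit, each a set of ribosomal RNAs covered by proteins that, outside the stalk, are needed in equal numbers. Their messenger RNAs are among the most abundant of a dividing cell, and most begin with a C followed by a run of pyrimidines, the terminal 5′ oligopyrimidine (TOP) tract, through which mTOR signalling and the protein Larp1 control their translation. In the intestine, ribosome production is known to be driven by Myc and to be high in the dividing cells of the crypt.

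The first bases of some members show this tract and its absence in the annotation. RefSeq promoter windows of build GRCm38.p6 were matched for 54 of the 72 members. The lines give the 10 bases before and the 20 bases from the annotated start, 5′ to 3′ on the gene's strand. Capitals mark a tract that begins at the start base, defined as C and then at least 4 pyrimidines. Rplp2 and Rpl35 hold one and rose after DT, Rps6 and Rps27 hold one and did not pass the test, and Rps27l (a paralog of Rps27), Rpl12, Rpl27 and Rps2 rose with none at the start shown.
Rplp2: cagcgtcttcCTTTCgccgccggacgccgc
Rpl35: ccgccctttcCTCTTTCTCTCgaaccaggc
Rps6: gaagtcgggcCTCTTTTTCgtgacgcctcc
Rps27: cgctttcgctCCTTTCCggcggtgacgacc
Rps27l: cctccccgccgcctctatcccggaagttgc
Rpl12: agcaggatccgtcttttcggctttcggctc
Rpl27: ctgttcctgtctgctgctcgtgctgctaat
Rps2: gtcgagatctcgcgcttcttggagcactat
The windows lie at chr7:141447641-141447670 on the plus strand (Rplp2), chr2:39005112-39005141 on the minus strand (Rpl35), chr4:86857348-86857377 on the minus strand (Rps6) and chr3:90213629-90213658 on the minus strand (Rps27). Those without a tract at the start base lie on the plus strand at chr9:66946076-66946105 (Rps27l, the first of 2 starts in the table, neither with a tract at the start base), chr2:32961702-32961731 (Rpl12), chr11:101442235-101442264 (Rpl27) and chr17:24720053-24720082 (Rps2). In the windows shown for Rps27l, Rpl12 and Rps2 a tract does begin within 5 bases of the annotated start. In that of Rpl27 none does. The RefSeq spans of Rps2 and Rps27l, given below, begin upstream of these windows, and a start there was not examined.

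The tract stood at an annotated start in 13 of the 54 members (24.1%) and in 813 of 27025 genes of the table (3.01%). Counting a tract that starts within 5 bases of the annotated start, 28 members (51.9%) and 21.2% of all genes held it. At 24 h the median log2 fold change was 0.19 over the 13 members with a tract at the start, of which 2 were called higher, and 0.18 over the 41 without, of which 15 were called higher. These are 15.4% and 36.6%, beside 19.9% of all tested genes called higher, and the difference between them was not tested. The 41 include members with a tract that begins within 5 bases of the annotated start, such as Rpl12 and Rps2. A match is a description of letters in these windows, and annotated starts can differ from those used in these cells.

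The libraries held 10888654 to 27707554 counts. Lgr5, the gene that marks the depleted cells, measured 179 to 217 CPM (counts scaled to a common library size) in the saline libraries of 24 h and 77.0 to 84.9 CPM in the DT libraries (edgeR log2 fold change -1.30, adjusted p = 4.44e-08). At 48 h the DT library of replicate 3 held 171 CPM of Lgr5, within the saline range of 164 to 198 CPM, while the other 3 held 95.4 to 117 CPM. At 96 h Lgr5 was 152 to 182 CPM with saline and 123 to 135 CPM with DT. The summed level of 9 epithelial markers was 6782 to 9062 CPM. That of 8 fibroblast markers, which include the collagens Col1a1, Col1a2 and Col3a1, was 2747 to 11428 CPM, and it ran from 3408 to 3999 CPM in saline and from 2899 to 6673 CPM in DT libraries at 24 h. Endothelial markers summed to 211 to 607 CPM and macrophage markers to 89.5 to 474 CPM, whereas T and NK cell markers and B cell markers each summed to under 1 CPM in every library, with Cd3d, Cd3g, Cd8a, Nkg7 and Ms4a1 at a median of 0 nRPKM. The part of these other cells in the results was not tested, and in bulk RNA fewer cells of a type and less RNA per cell cannot be told apart.

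The members together took a small part of each library, between 0.633% and 0.995% of its counts. Their levels, compared per length as the authors' normalized RPKM (nRPKM), differed by a factor of 309 between the highest and the lowest member. Among the highest were Rpl8, a core large subunit protein, with a median of 835 nRPKM over the 24 libraries (range 718 to 1177), Rpl4, which lines the exit tunnel of the growing peptide, with 573 nRPKM (506 to 725), and Rpl13a with 437 nRPKM (381 to 568). The ranges of Rpl4 and Rpl13a overlapped, so that their order is not resolved. The lowest were Rpl27 with 3.66 nRPKM (2.78 to 6.32), Rpl19 with 2.82 nRPKM (2 to 4.1) and Rpl21 with 2.71 nRPKM (2.14 to 3.62), all 3 large subunit proteins, and their ranges overlapped too. 39 members lay under 20 nRPKM, 17 over 100 nRPKM, and 10 of the 72 held 68.9% of the members' counts.

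The spread of levels went along with how many pseudogenes share part of each transcript. The deposited count is of reads that aligned uniquely, and mouse ribosomal protein genes have many processed pseudogenes, copies of their messenger RNA in the genome. In the GENCODE vM21 transcripts (GRCm38), 71 members were matched. Rpl8, Rpl4, Rps3, Rps9 and Rpl14 shared 50-base windows with 1 pseudogene, each at 116 nRPKM or more. Rpl7a shared windows with 120 pseudogenes, Rpl29 and Rpl21 with 81, Rps2 with 71 and Rpl17 with 50, and all 5 lay at 13.2 nRPKM or less. The number of pseudogenes is not the amount of sequence shared. The windows in no other gene were 18.8% for Rpl7a, 64.5% for Rpl29, 80.3% for Rpl21, 43.6% for Rps2 and 55.3% for Rpl17. There were exceptions both ways: Rps10 shared windows with 2 pseudogenes and had 12.9 nRPKM, and Rpl32 shared windows with 8 and had 295 nRPKM. Across the 71 members Spearman's rho between level and number of such pseudogenes was -0.55 (Pearson's r -0.36), a description of points that share libraries and copies, not a test. Between level and the percentage of windows in no other gene, rho was 0.49 (Pearson's r 0.50), a description too. Levels of members that share sequence are uncertain for this reason. The sources used here give neither the read length nor whether counting used the strand.

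**Figure D1:**
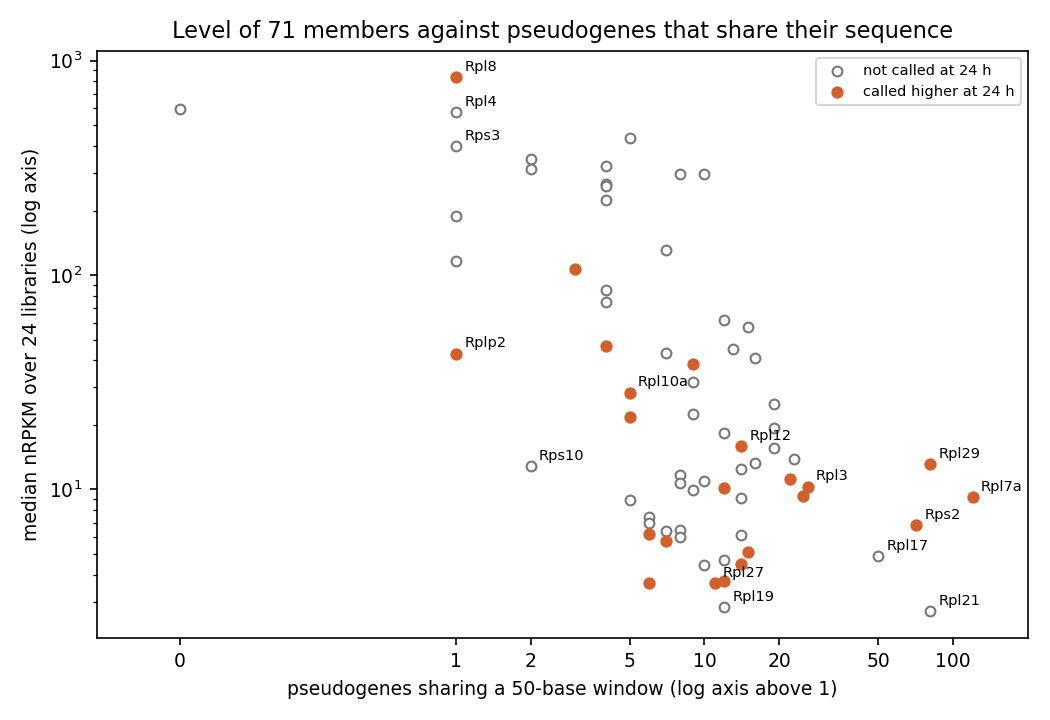
Median nRPKM over the 24 libraries (y, log axis) against the number of pseudogenes that share at least 1 window of 50 bases with the member (x, log axis above 1), for 71 members. Filled points were called higher 24 h after DT; members at 1 pseudogene or none lie between 43.0 (Rplp2) and 835 nRPKM, and those at 50 or more between 2.71 and 13.2 nRPKM.

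At 24 h after DT, 22 of the 72 members were higher than in saline and none was lower by edgeR's quasi-likelihood test (adjusted p under 0.05 over all 17468 genes tested), with log2 fold changes of 0.26 to 0.72 among those called. The share of members called higher was 30.6%, beside 19.9% of all tested genes, and 0 members were called lower beside 18.9% of all tested genes. At an unadjusted p under 0.05, 27 members were higher and 2 lower, and limma voom called 2 lower. The median log2 fold change was 0.21 over members and 0.00 over all tested genes, and 58 members had a positive value. By subunit, 14 of 40 large subunit genes (median 0.26), 7 of 29 small subunit genes (median 0.07) and 1 of 3 stalk genes (median 0.16) were called higher. The number called stayed between 16 and 23 when each library of 24 h was left out in turn.

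RefSeq places Rpl3 at chr15:80077781-80083406, Rpl10a at chr17:28328471-28331033, Rpl12 at chr2:32961712-32964045 and Rpl29 at chr9:106428889-106431568 (GRCm38.p6). Rpl10a, a protein of the mobile L1 stalk where spent tRNA leaves, measured 23.5, 28.3, 34.3 and 26.9 CPM in the saline libraries of 24 h and 50.5, 40.2, 44.6 and 41.2 CPM in the DT libraries. Every DT library lay above every saline library, and the log2 fold change was 0.64 (SE 0.10, adjusted p = 3.36e-05). Rpl3, whose extensions reach the peptidyl transferase centre, measured 14.8, 15.2, 18.8 and 13.5 CPM with saline and 25.96, 24.3, 23.0 and 22.6 CPM with DT. These groups did not overlap either (log2 fold change 0.62, SE 0.10, adjusted p = 2.19e-05). Rpl12, at the base of the stalk that recruits elongation factors, measured 8.12, 8.10, 10.2 and 9.10 CPM with saline and 15.8, 12.8, 13.2 and 12.4 CPM with DT, again without overlap (log2 fold change 0.60, SE 0.12, adjusted p = 0.000295). Rpl29, a small basic protein of the large subunit surface, measured 16.7, 15.4, 15.4 and 13.7 CPM with saline and 21.5, 20.2, 25.2 and 23.7 CPM with DT. Here too the lowest DT library lay above the highest saline library (log2 fold change 0.57, SE 0.11, adjusted p = 0.000246). The largest fold change of any member belonged to Rpl27, one of the lowest in level, whose libraries ran from 2.29 to 3.31 CPM with saline and from 3.86 to 5.17 CPM with DT (log2 fold change 0.72, SE 0.16, adjusted p = 0.00101).

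In the small subunit, Rps2 lies at chr17:24718121-24721927 and Rps27l at chr9:66944624-66949522. Rps2, a protein of the channel through which mRNA enters, measured 8.19, 8.17, 7.55 and 8.87 CPM with saline at 24 h and 11.4, 11.1, 15.5 and 11.7 CPM with DT. The DT libraries all lay above the saline libraries, with replicate 3 highest (log2 fold change 0.60, SE 0.12, adjusted p = 0.000443). Rps27l measured 34.9, 34.4, 32.7 and 31.1 CPM with saline and 40.9, 43.8, 52.3 and 47.1 CPM with DT. Those groups did not overlap (log2 fold change 0.47, SE 0.08, adjusted p = 6.5e-05). Its paralog Rps27, which differs from it in few residues and can take its place in the ribosome, measured 3.62 to 4.05 CPM with saline and 3.06 to 3.52 CPM with DT. All its DT libraries lay below all its saline libraries, yet the change did not pass the test (log2 fold change -0.22, SE 0.15, adjusted p = 0.272). The difference between the paralogs was not tested. Of their 50-base windows, 53.8% in Rps27 and 83.8% in Rps27l were free of other genes. The part of shared sequence in their counts was not tested, so their levels cannot be compared directly. Rps12 (0.45), Rps16 (0.62), Rps27a, which is made as a fusion with ubiquitin (0.62), Rps23 (0.56) and Rps13 (0.52) were the other small subunit genes called, with these log2 fold changes.

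**Figure D2:**
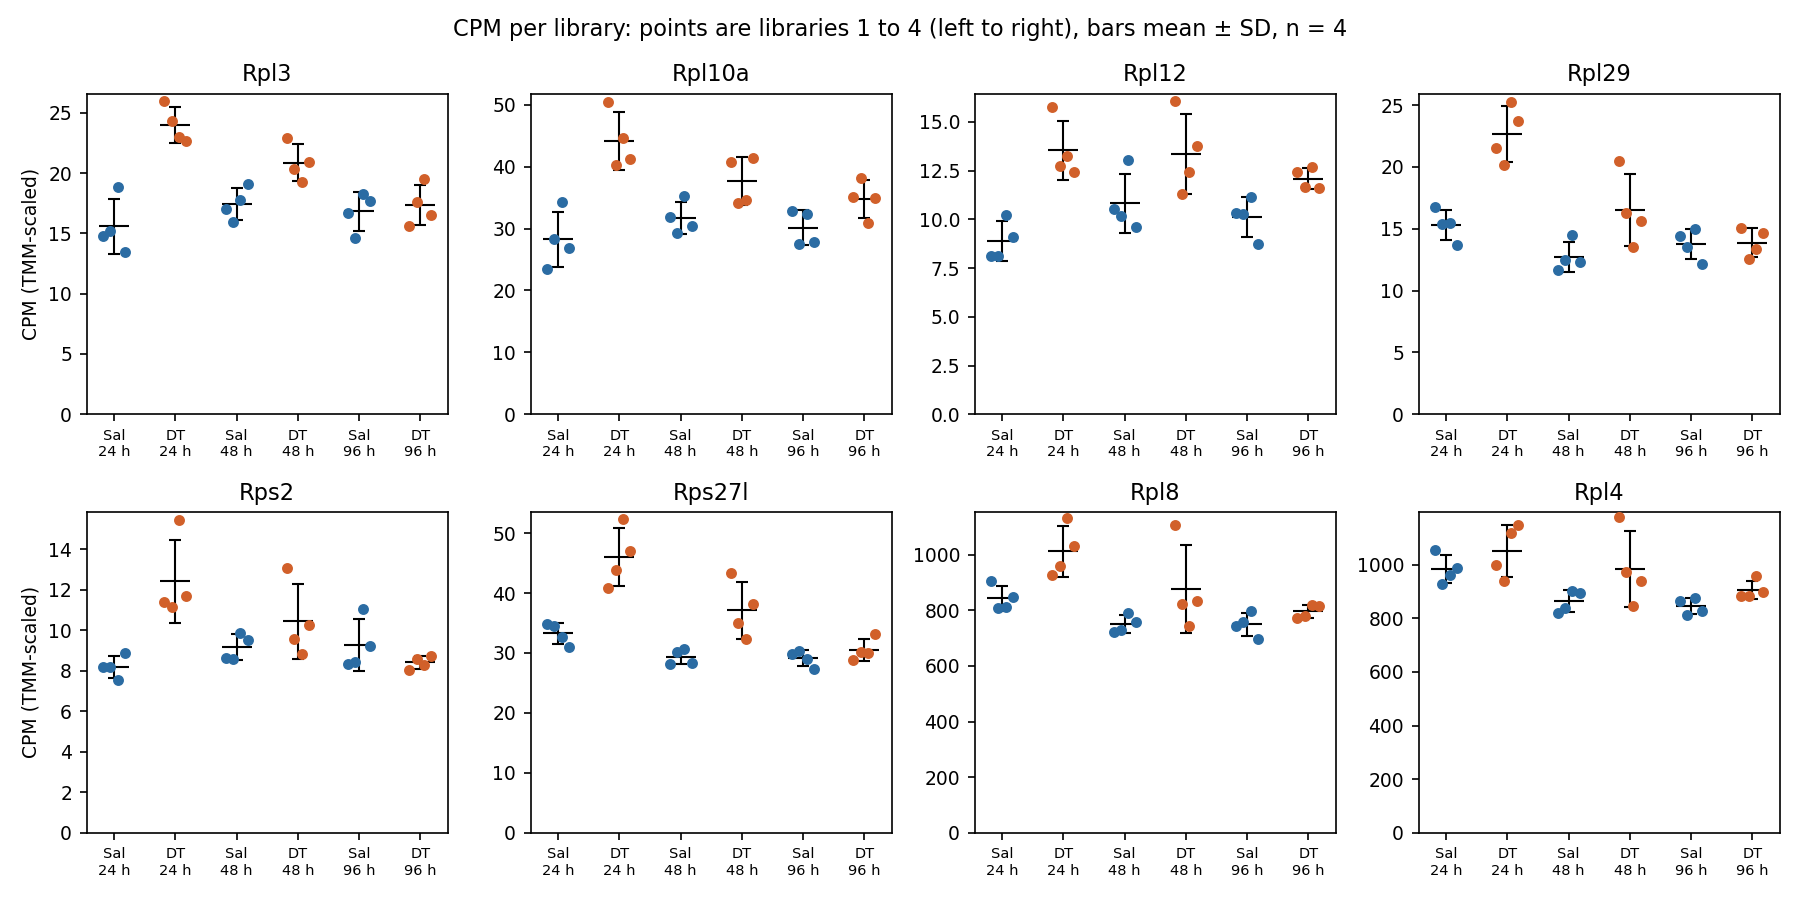
CPM (y, from 0) of 8 members in each library, by group (x; Sal is saline); points are libraries, crosses and bars mean ± SD of 4. Rpl3, Rpl10a, Rpl12, Rpl29, Rps2, Rps27l and Rpl8 do not overlap between saline and DT at 24 h, Rpl4 does, and replicate 1 of DT at 48 h is highest of its group for all but Rpl10a, where replicate 4 is.

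The stalk is a pentamer of Rplp0 with copies of Rplp1 and Rplp2. Rplp2 rose at 24 h, from 34.5, 27.4, 31.5 and 30.8 CPM to 37.6, 38.2, 43.2 and 42.4 CPM (log2 fold change 0.38, SE 0.10, adjusted p = 0.00373), and its groups did not overlap. Its partners were not called. Rplp1 ran from 134 to 162 CPM with saline and from 143 to 176 CPM with DT (log2 fold change 0.16, SE 0.11, adjusted p = 0.25). Rplp0 ran from 203 to 237 CPM with saline and from 192 to 252 CPM with DT (log2 fold change 0.01, SE 0.10, adjusted p = 0.957).

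The most abundant members moved little. Of the 12 highest by nRPKM only Rpl8 was called at 24 h, with 904, 809, 812 and 847 CPM in saline and 925, 960, 1132 and 1030.0 CPM in DT libraries. Its groups did not overlap (log2 fold change 0.26, SE 0.09, adjusted p = 0.0193), but the call was lost with the replicate number as a block and when replicate 2 or 3 of saline or replicate 3 of DT was left out, with a highest adjusted p of 0.0717 over all settings. Rpl4 measured 1053, 930, 963 and 988 CPM with saline and 999, 938, 1117 and 1146 CPM with DT. Its groups overlapped and the log2 fold change was 0.09 (SE 0.08, adjusted p = 0.365). At the other end of the levels, Rpl19 (0.29) and Rpl21 (0.15) were not called. Rps3, Rpl13a and Rps14 had log2 fold changes of -0.02, -0.08 and -0.16 and were not called. Rpl22, a ribosomal protein that is lost in some T cell leukaemias, and Rps15a had -0.20 and -0.19 and did not pass the test either (adjusted p = 0.0582 and 0.0622). All DT libraries of Rps15a lay below its saline libraries. Both genes were called lower without replicate 3 of saline, and 1 member was called lower without replicate 2 of saline or replicate 4 of DT.

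The calls at 24 h were also counted by level. Among the 36 members with the lower median nRPKM 14 were called higher (38.9%, median log2 fold change 0.29), beside 20.9% of tested genes in the same range of nRPKM. Among the upper 36 members 8 were called (22.2%, median 0.06), beside 26.7% of tested genes at or above the members' median level. Summed over the lower 36, saline libraries ran from 302 to 321 CPM and DT libraries from 345 to 415 CPM, with no overlap. The sum over the upper 36 ran from 7101 to 8159 CPM with saline and from 7257 to 8589 CPM with DT, and overlapped. Spearman's rho between level and log2 fold change over the 72 members was -0.51 at 24 h (Pearson's r -0.48), -0.14 at 48 h and 0.42 at 96 h, given as a description since all members come from the same libraries. All 8 fibroblast markers had positive log2 fold changes at 24 h, with a median of 0.56, and 2 were called higher, Dcn (0.96) and Pdgfra (0.53), beside 19.9% of all tested genes. All 6 endothelial markers were positive too (median 0.29, 1 called), with sums of 211 to 306 CPM in saline and 296 to 332 CPM in DT libraries. In DT replicates 1 to 4 the fibroblast sums were 2899, 6601, 6673 and 4176 CPM, and the median differences over the lower members were 0.38, 0.14, 0.52 and 0.27 on the log2 scale. The part of these cells in the members' values was not tested. The upper members had the smaller standard errors (median 0.10 against 0.14).

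The same split can be made by shared sequence. Of the 22 members that share windows with at most 5 pseudogenes 6 were called higher at 24 h (median log2 fold change 0.10), and of the 49 that share windows with more, 16 were (median 0.25). Rps27l and Rpl8, with 4 and 1 such pseudogenes, and Rplp2, with 1, were among the 6. Of the 22 members with fewer than 50% of their 50-base windows free of other genes 10 were called (median 0.30), beside 12 of the other 49 (median 0.15). The shares called were 27.3% and 32.7% in the first split and 45.5% and 24.5% in the second, beside 19.9% of all tested genes, and the differences were not tested. Whether reads lost to pseudogenes took part in the pattern was not tested. Groups did not overlap in 18 of the 22 members called, that is in 18 of all 72 members. Among all tested genes they did not overlap in 2914 of the 3469 called higher, which is 16.7% of the tested genes. No such share was counted for genes whose DT libraries all lay lower, as those of Rps27 and Rps15a did.

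**Figure D3:**
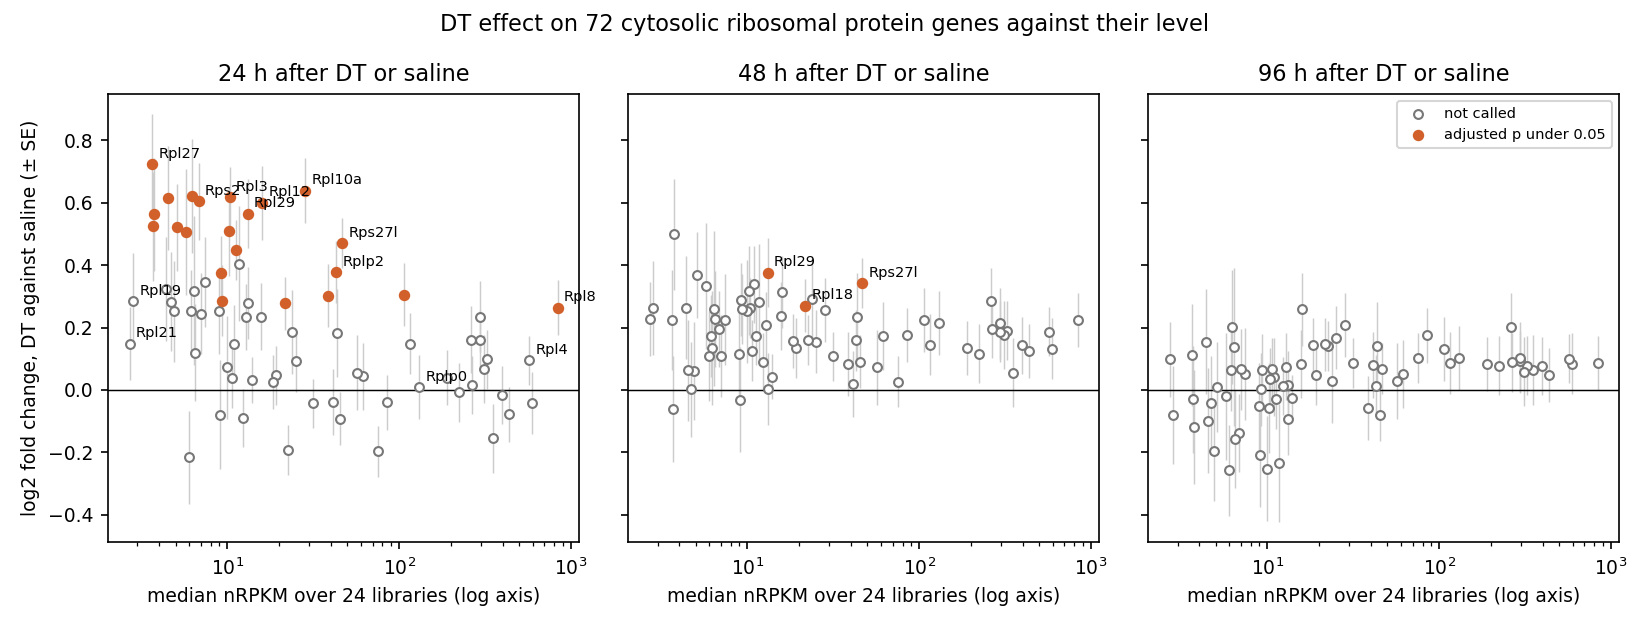
Log2 fold change of DT against saline (y, ± SE) against median nRPKM (x, log axis) for the 72 members at 24, 48 and 96 h. Filled points passed an adjusted p of 0.05: 22 at 24 h, which lie mostly at low levels, 3 at 48 h and none at 96 h.

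Several members with known roles beyond the ribosome were not called. Rpl5 and Rpl11, which with 5S RNA bind Mdm2 when ribosome assembly stalls, had log2 fold changes of -0.09 and 0.32 at 24 h (adjusted p = 0.47 and 0.132). Rps6, the target of S6 kinase, had 0.25 (adjusted p = 0.132). Rpl32l, annotated as a gene like Rpl32, measured 15.6 to 19.5 CPM with saline and 17.5 to 22.5 CPM with DT (log2 fold change 0.19, adjusted p = 0.289), and reads from it and Rpl32 may not be told apart.

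At 48 h 3 members were called higher, Rps27l, Rpl29 and Rpl18, beside 4.83% of all tested genes, and 0 were called lower beside 6.5%. The 3 make up 4.17% of the members, a share near that of all genes. All 3 were also called at 24 h. The median log2 fold change over members was 0.18 and 70 of 72 values were positive. At an unadjusted p under 0.05, 20 members were higher and 0 lower, and no tool called a member lower. Rps27l measured 28.2, 30.2, 30.6 and 28.3 CPM with saline and 43.3, 34.9, 32.3 and 38.1 CPM with DT, without overlap (log2 fold change 0.34, SE 0.08, adjusted p = 0.0076). Rpl29 measured 11.6, 12.5, 14.5 and 12.3 CPM with saline and 20.5, 16.3, 13.5 and 15.6 CPM with DT, where replicate 3 of DT fell within the saline range (log2 fold change 0.38, SE 0.11, adjusted p = 0.0299). Rpl18, a large subunit protein, measured 65.3, 66.2, 69.6 and 64.5 CPM with saline and 99.9, 78.5, 65.1 and 76.8 CPM with DT, with the same library in the saline range (log2 fold change 0.27, SE 0.08, adjusted p = 0.0389).

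The 48 h result depended on single libraries. The members summed to 9789 CPM in replicate 1 of DT, 7522 in replicate 2, 6656 in replicate 3 and 7378 in replicate 4, against 6691 to 7511 CPM in saline. Replicate 1 was the highest of all 24 libraries, and it also held the most fibroblast marker RNA (11428 CPM), at a depth of 16373494 counts. Without it Rps27l alone was called and the median log2 fold change was 0.06. Replicate 3 was the library with Lgr5 in the saline range. Without it 19 members were called higher, among them Rplp0, Rplp1, Rpl4 and Rpl8, and the median was 0.27. Without both, 2 members were called and the median was 0.13. Leaving out replicate 1, 2 or 4 of saline left 1 called, and leaving out replicate 3 of saline or replicate 2 of DT gave 5. The shares of all tested genes called in these refits are not given here. Whether these counts are particular to the members is therefore not shown.

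**Figure D4:**
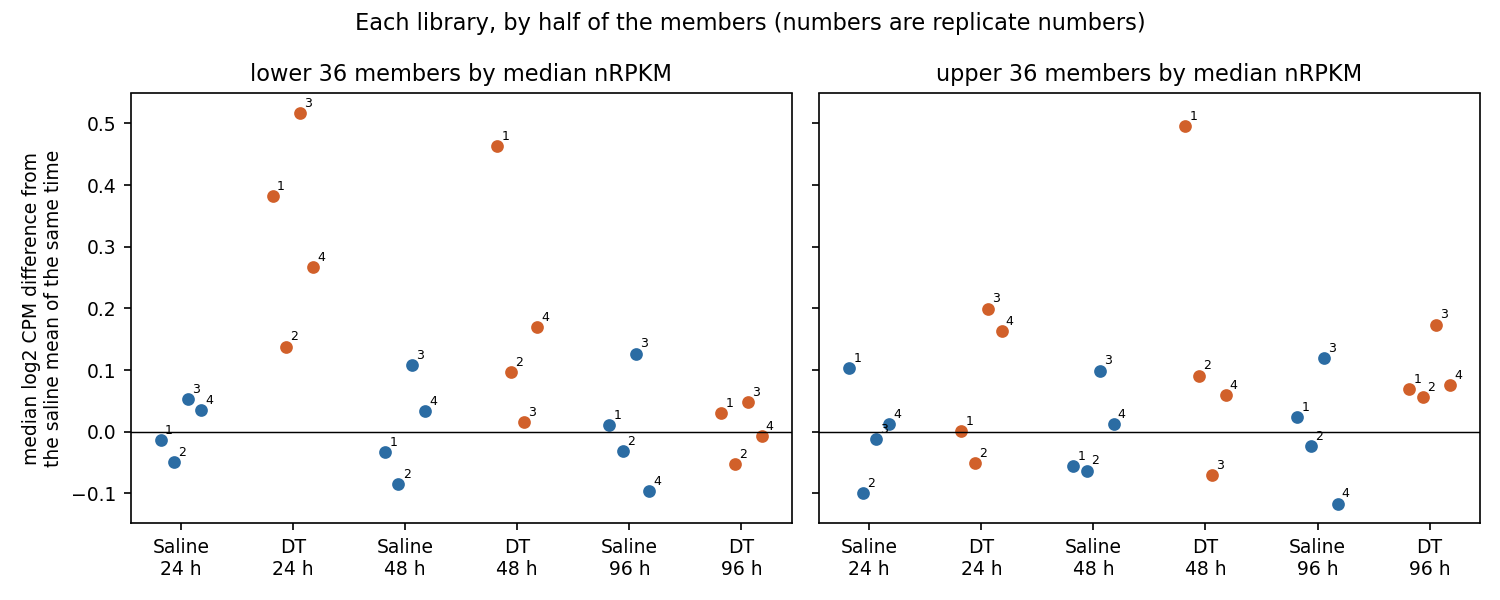
Median over members of log2 CPM minus the mean of the saline libraries of the same time (y), for each library (points, numbered by replicate; x, group), for the 36 members lower (left) and higher (right) in nRPKM. At 24 h the lower members of all DT libraries lie at 0.14 to 0.52, above the saline range of -0.05 to 0.05, and at 48 h replicate 1 of DT stands at 0.46 and 0.50.

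At 96 h no member was called in either direction, beside 1.01% of all tested genes called higher and 3.02% called lower. At an unadjusted p under 0.05, 1 member was higher and 0 lower, and DESeq2 and limma voom called none. The median log2 fold change was 0.06 and 52 members had a positive value. Rpl3, for example, measured 16.7, 14.6, 18.3 and 17.7 CPM with saline and 15.6, 17.6, 19.5 and 16.6 CPM with DT, so that its groups overlapped. The members summed to 6436 to 7403 CPM with saline and to 7093 to 7754 CPM with DT.

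Whether the DT effect differed between times was tested as an interaction. Between 48 h and 24 h, 0 members were called higher (0.555% of all tested genes) and 0 lower (2.34%), with 1 and 6 at an unadjusted p under 0.05, and no call by DESeq2 or limma voom. So the loss of calls from 24 h to 48 h is not shown to be a change of effect. Between 96 h and 24 h, 5 members had a lower effect at 96 h, and 0 had a higher one, beside 4.08% of all tested genes. The 5 make up 6.94% of the members, a share near the 7.82% of all tested genes. At an unadjusted p under 0.05, 17 were lower and 2 higher. DESeq2 called 8 lower and 1 higher, and limma voom called 2 higher. The 5 were Rps2 (difference in log2 fold change -0.74, SE 0.18, adjusted p = 0.00732), Rpl3 (-0.58, SE 0.14, adjusted p = 0.0071), Rpl29 (-0.55), Rps12 (-0.48) and Rps27l (-0.40), and all 5 had been called at 24 h. The libraries of 24 h that gave those calls are part of this test too, so the overlap is not independent. Rps2 and Rpl3 passed in every setting tried. The number called lower ran from 2 (without replicate 4 of saline at 24 h or replicate 3 of saline at 96 h) to 9 (without replicate 4 of saline at 96 h). It was 3 without replicate 2 of saline or replicate 3 of DT at 24 h or replicate 3 of DT at 96 h, and 8 without replicate 4 of DT at 24 h or replicate 2 of DT at 96 h. Rpl29, Rps12 and Rps27l lost the call in 6 or 7 settings, among them when replicate 3 of saline or of DT at 96 h was left out, with highest adjusted p, in that order, of 0.0991, 0.104 and 0.109.

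The genes that supply and assist ribosomes were read from lists of known components. Of these, 59 of 78 mitochondrial ribosomal protein genes were called higher at 24 h and 0 lower (median log2 fold change 0.35), as Mrpl38 (0.64, SE 0.08, adjusted p = 1.04e-06) and Mrps7 (0.58, SE 0.07, adjusted p = 1.7e-06). At 48 h 14 of them were called higher (17.9% beside 4.83% of all tested genes). At 96 h 0 were (1.01% of all tested genes), with 3 higher at an unadjusted p under 0.05. A lower effect at 96 h than at 24 h was called for 21 of them (26.9%), beside 6.94% of the cytosolic members and 7.82% of all tested genes. The difference was not tested. Of 24 genes of large subunit assembly 21 were called higher at 24 h, such as Rrs1 (log2 fold change 0.69), which brings the 5S particle into the large subunit. Of 25 genes of small subunit assembly 23 were called, such as Rrp12 (1.08), an export factor, and Nop14 (0.72). Of 23 genes of RNA polymerase I and rRNA modification 17 were called, led by Nop56 (1.13, SE 0.07, adjusted p = 8.26e-11), a core protein of the particles that methylate rRNA. None of these 3 lists had a gene called lower at 24 h, and 1, 0 and 0 were lower at an unadjusted p under 0.05. At 96 h Nop2, Nop56 and Nop58 (0.26, 0.24 and 0.19), Tsr1 (0.21) and Wdr43 (0.20) were still called higher. They are 3 of the 23 genes of RNA polymerase I and rRNA modification (13.0%) and 2 of the 25 of small subunit assembly (8.0%). Of the 24 genes of large subunit assembly 0 were called at 96 h, beside 1.01% of all tested genes. The counts at 24 h stand beside the same 19.9% of all tested genes called higher, and the difference between the lists and the members was not tested.

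Of 30 initiation, elongation and release factors, 22 were called higher at 24 h and 1 lower (median 0.34), such as Abce1, which splits ribosomes after termination (0.61), and the cap-binding protein Eif4e (0.46). Of 19 genes whose mRNAs are known to carry TOP tracts, 4 were called higher and 4 lower (median 0.05), 21.1% each way, near the 19.9% and 18.9% of all tested genes. Npm1 (0.45, SE 0.07, adjusted p = 2.02e-05) and Eef1g (0.36) rose, while Tpt1 (-0.48, SE 0.10, adjusted p = 0.000307), Eif3f (-0.25), Nap1l1 (-0.21) and Eef2, the translocation factor (-0.18), fell. Of 10 ribosomal proteins or ribosomal protein-like genes outside the symbol rule 3 were called higher at 24 h. Among them were Rpl7l1, a gene like Rpl7 (0.68, SE 0.06, adjusted p = 2.6e-08), and Rpl36al (0.62). Rack1, the scaffold of the small subunit and at 942 nRPKM above any member, had a log2 fold change of 0.04 (adjusted p = 0.755). Rpsa (0.43), Fau (0.22), Rpl37rt (0.22), Rps3a1 (0.15), Rpl22l1 (0.09) and Rps27rt (-0.18) were not called either.

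**Figure D5:**
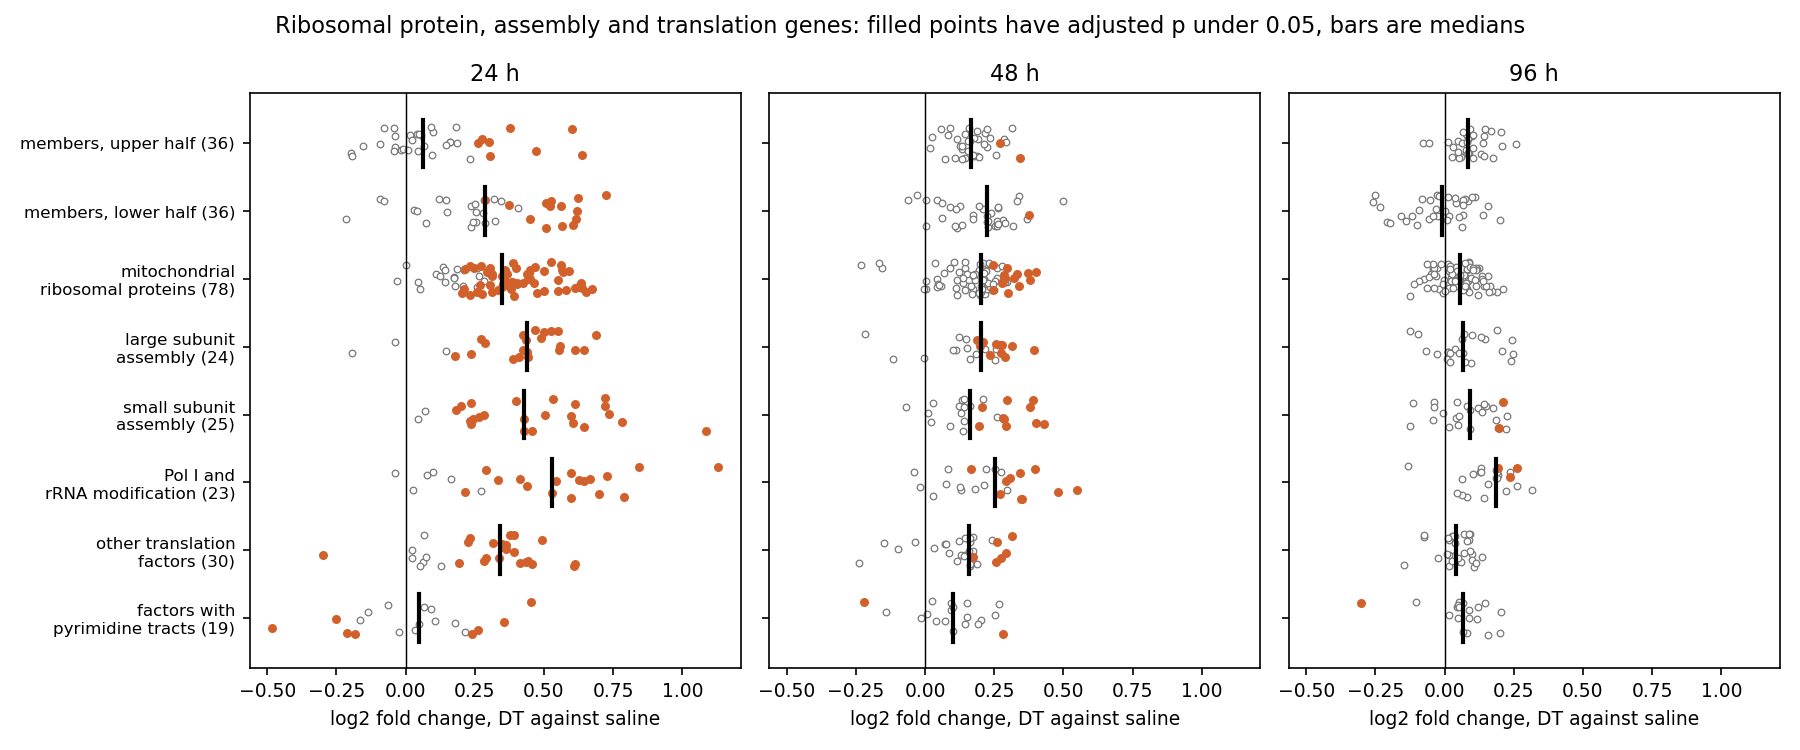
Log2 fold change of DT against saline (x) of single genes (points, filled where the adjusted p was under 0.05) in the members and in lists of ribosome and translation genes (y, number of genes in parentheses), at 24, 48 and 96 h; bars are medians. At 24 h the medians are 0.06 for the upper and 0.29 for the lower members, 0.35 for mitochondrial ribosomal proteins, 0.44, 0.43 and 0.53 for the assembly and rRNA lists, and 0.05 for factors with pyrimidine tracts.

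Of 26 regulators of ribosomal protein synthesis, 4 were called higher and 3 lower at 24 h, no larger a share than the 19.9% and 18.9% of all tested genes. Myc rose at all 3 times, with log2 fold changes of 0.51, 0.51 and 0.38 (adjusted p = 3.4e-06, 7.7e-05 and 0.00153). Akt1s1, which inhibits mTOR, rose at 24 h (0.45) and Larp1 rose (0.24), while Sesn2 (-0.50), Ddit4 (-0.39) and Tsc2 (-0.17), which all restrain mTOR, fell. Of 14 genes of ribosome surveillance and the p53 axis 6 were called higher (42.9% beside 19.9% of all tested genes), with Gcn1 (0.41) and Trp53 (0.37) among them. The 3 called lower, a share near the 18.9% of all tested genes, were Mdm2 (-0.18), Mdm4 (-0.47) and the p53 target Cdkn1a (-0.41). The labels write the genotype only as AKVPL and do not give the state of p53. These RNA levels therefore do not show whether p53 was active. All 15 S phase genes and all 15 G2/M genes of the lists were called higher at 24 h (medians 0.86 and 1.29). The part of cell division in the members' values was not tested.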

How the data were processed

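For every library the authors deposited a table of 36528 genes. Its count column holds reads that aligned uniquely to the gene model, per the file headers. Its nRPKM column, per the file headers, is RPKM corrected with a size factor. The submitters' processing notes name GSNAP and the build GRCm38. The sources used here do not give the aligner version, annotation, strand or read length. Of the row IDs 31049 (85.0%) matched the name table.

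Counts of all 6 groups were fitted together in edgeR 4.0.16 (R 4.3.3) with filterByExpr, TMM scaling and the quasi-likelihood test (17468 genes, 18 residual degrees of freedom, common biological coefficient of variation 0.120). Contrasts gave DT against saline at each time and the difference of these effects between times. P-values were adjusted by Benjamini-Hochberg over all tested genes and called under 0.05. CPM values use the TMM library sizes. Libraries held 10888654 to 27707554 counts, and all 72 members passed the filter. No libraries of a group agreed within sampling noise (smallest chi-square per degree of freedom 3.97). Alternatives were DESeq2 1.42.0, limma 3.58.1 (voom), other scalings, filters and thresholds, a replicate block, and leaving out each library. The fitting script was tested on simulated data.

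The members and gene lists were chosen with earlier results of these data known. Members named with full values were those with the smallest p at each time, those with the smallest interaction p, the highest and lowest in level, the stalk genes and paralogs, and of each other list up to 4 genes with the smallest p at each time. Rps27, Rps15a, Rpl22, Rpl5, Rpl11, Rps6 and the other members or listed genes given by a fold change alone were named after their values were seen. A few withheld items are not reported here.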

Additional observations from a re-analysis of the deposited data

Results flagged for a closer look

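In 4 of 120 sets of 4 libraries tested, the value of 1 library lay far from the other 3. The gap to its nearest neighbour over the whole range passed the 95% critical value of Dixon's test. In all 4 the value was the CPM of a named member, though not all 120 sets were of named members. Chance flags about 1 in 20 such sets. Rps2 was 15.5 CPM in replicate 3 of DT at 24 h (ratio 0.873). Rplp1 was 137 CPM in replicate 3 of saline at 48 h (0.876). Rplp2 was 42.1 CPM in replicate 1 of DT at 48 h (0.893), the library in which the members' sum was highest. Rpl32l was 18.7 CPM in replicate 3 of DT at 96 h (0.882).

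The effect of DT was lower at 96 h than at 24 h, by edgeR's interaction test, for 5 named members. They make up 6.94% of the members, a share near the 7.82% of all tested genes. The differences in log2 fold change were -0.74 for Rps2 (adjusted p = 0.00732), -0.58 for Rpl3 (adjusted p = 0.0071), -0.55 for Rpl29 (adjusted p = 0.0225), -0.48 for Rps12 (adjusted p = 0.0229) and -0.40 for Rps27l (adjusted p = 0.0232).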

How the results depend on the processing

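The number of members called higher at 24 h was 19 to 27 over all settings but the left-out libraries, and 16 to 23 with a library left out. Of 19 called results of named members, 0 of 437 settings reversed the sign and 40 lost the call, and of 71 uncalled results, 30 of 1741 settings gained one. The replicate block left 19 members called higher at 24 h, with Rpl8 among those lost, 0 at 48 h, and 2 (Rpl3 and Rps2) with a lower effect at 96 h than at 24 h. The numbers did not pair the libraries: correlations of same-numbered libraries ran from -0.36 to 0.13, and 0 of 12 were highest for their own number. Members called lower at 24 h numbered 2 at an adjusted p under 0.1 and by limma voom, 1 with only the libraries of the time, and 0 to 2 with a library left out. Members called higher at 48 h numbered 9 at an adjusted p under 0.1 and by limma voom, 0 with only the libraries of the time, and 1 to 19 with a library left out (19 without replicate 3 of DT). With a library left out, 0 to 1 had a higher effect at 48 h than at 24 h (1 without replicate 3 of DT at 48 h). For the effect at 96 h against 24 h, 2 were higher at an adjusted p under 0.1 and by limma voom, 1 by DESeq2 and with median-of-ratios scaling, and 0 to 2 with a library left out (2 without replicate 3 of saline at 24 h). In the same comparison 12 were lower at an adjusted p under 0.1, 8 by DESeq2 and 2 to 9 with a library left out (9 without replicate 4 of saline at 96 h). The causes of these changes were not tested, and the shares of all tested genes called in these settings are not given here. The share of member promoters with a tract was 18.5% with at least 6 pyrimidines and 51.9% within 5 bases of the start, by construction of the motif. Leaving out both DT libraries of 48 h that stood apart was chosen after seeing the data. Low counts limit Rpl27, Rpl19 and Rpl21, at under 4 nRPKM. The same limit holds for Rps13 and Rps23, called at 24 h with summed counts just above the minimum.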
